A study of Mus musculus with 28 samples.

Results

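The 10 genes described here encode parts of the Polycomb system and were chosen by name, with no threshold on a measured value. They are *Ezh1*, *Ezh2*, *Eed*, *Suz12*, *Jarid2* and *Mtf2* of Polycomb repressive complex 2 (PRC2), *Cbx2*, *Cbx7* and *Bmi1* of Polycomb repressive complex 1 (PRC1), and the H3K27 demethylase gene *Kdm6b*. They are 10 of the 21951 protein-coding genes of GENCODE vM21 on mm10 (GRCm38). Their chromatin was read in nuclei of the 2 projection neuron types of the mouse striatum, A2a (indirect pathway) and D1 (direct pathway) medium spiny neurons. Nuclei carried the Sun1-sfGFP tag, encoded at the R26 locus behind the CAG promoter and a stop cassette that Cre removes, and were pulled out by this tag (INTACT) from Sun1-sfGFP;A2a-cre or Sun1-sfGFP;Drd1-cre mice. The mice were untreated and on a C57BL/6J background, so a cell type here means nuclei in which that Cre line was active. Their age is stated as about 8 weeks and also as 6 to 12 weeks. Male and female mice are said to have been allocated equally, but the sex of the mice behind each pool is not given, and on the Y chromosome there were 2 H3K4me3 peaks in A2a and 7 in D1. CUT&RUN with an Abcam antibody gave H3K4me3 peaks, each with a fold enrichment over local background and a −log10 q-value, and CUT&RUN with an Active Motif antibody gave H3K27me3 islands, each with the number of reads counted in it.

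The series has 28 samples, and 8 of them, 2 replicates for each cell type and mark, are pooled in the 4 lists used here. Because each list is 1 pooled sample, the values come without an error between replicates, and A2a was not tested against D1. Percentiles give the share of peaks or islands of the same list with an equal or lower value, and intervals on island reads are exact 95% Poisson intervals for counting error only. There were 22551 H3K4me3 peaks in A2a and 20080 in D1. The paper reports more signal of both marks in peaks in A2a than in D1. It proposes differences in cell number, mouse age, immunoprecipitation, amplification or batch as the source, which was not tested here. The −log10 q-values are therefore not directly comparable between the lists. The A2a H3K27me3 list held 60191 islands with 22091634 reads over 301 Mb, and the D1 list held 45760 islands with 7878685 reads over 184 Mb, so read counts are not comparable between the lists without this difference in mind. The source name of the D1 H3K27me3 samples reads A2a while their title and cell type read D1, and they were taken as D1. At the marker genes, the islands followed the titles. Promoter islands at *Adora2a*, *Drd2* and *Penk* lay at percentiles 96.4 to 99.9 in D1, with 2 of 3 genes at 31.5 to 46.8 in A2a, and those at *Drd1*, *Pdyn* and *Tac1* lay at 98.3 to 99.9 in A2a and 2.21 to 60.3 in D1. Of 17 glial and endothelial marker genes, 7 had an H3K4me3 promoter peak in A2a (percentiles 14 to 88.1) and 5 in D1 (1.13 to 80.7). Among protein-coding genes, 58.2% had one in A2a and 55.8% in D1. Of 5 marker genes of medium spiny neurons and neurons in general, 3 had one in each list, and *Gad1* and *Rbfox3* had none. The part of glial and endothelial cells in the values below was not tested.

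Polycomb proteins keep developmental genes silent. PRC2 places the methyl groups on lysine 27 of histone H3, with EZH2 or EZH1 as the catalytic subunit and EED and SUZ12 as the obligatory partners. PRC1 reads this mark through a CBX subunit and modifies histone H2A through its RING and PCGF subunits, of which BMI1 is one, and demethylases such as KDM6B take the H3K27 methyl groups off again. The same mark can therefore be measured at the genes that make, read and erase it. H3K4me3 marks the start sites of genes that are active or poised for activity.

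Promoter sequences show what lies under the marks at the PRC2 core genes and at *Cbx7*, whose start site matters for a result below. They are RefSeq promoters of GRCm38.p6, 250 bases before to 50 after the start, written 5′ to 3′ on the gene's strand, and capitals mark CpG dinucleotides. All 5 lay entirely under an H3K4me3 peak in both lists and under no H3K27me3 island.
*Ezh1* (chr11:101226414-101226713, minus strand): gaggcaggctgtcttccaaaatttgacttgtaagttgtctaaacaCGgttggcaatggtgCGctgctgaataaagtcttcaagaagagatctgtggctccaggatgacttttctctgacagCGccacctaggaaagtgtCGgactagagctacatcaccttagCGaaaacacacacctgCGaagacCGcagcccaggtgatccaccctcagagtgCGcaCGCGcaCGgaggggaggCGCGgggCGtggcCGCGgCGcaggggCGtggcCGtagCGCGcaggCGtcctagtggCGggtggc
*Ezh2* (chr6:47594981-47595280, minus strand): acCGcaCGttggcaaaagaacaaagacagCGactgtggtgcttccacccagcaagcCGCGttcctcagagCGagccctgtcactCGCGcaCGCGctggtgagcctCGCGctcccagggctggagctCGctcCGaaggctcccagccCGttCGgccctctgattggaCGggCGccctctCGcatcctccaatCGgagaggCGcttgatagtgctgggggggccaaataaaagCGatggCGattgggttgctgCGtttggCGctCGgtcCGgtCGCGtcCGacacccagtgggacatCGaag
*Eed* (chr7:89980927-89981226, minus strand): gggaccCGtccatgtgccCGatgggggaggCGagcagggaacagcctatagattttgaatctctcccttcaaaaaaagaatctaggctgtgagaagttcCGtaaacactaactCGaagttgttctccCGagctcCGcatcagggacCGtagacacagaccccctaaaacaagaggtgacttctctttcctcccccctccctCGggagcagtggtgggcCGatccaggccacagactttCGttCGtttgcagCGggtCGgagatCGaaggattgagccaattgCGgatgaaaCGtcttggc
*Suz12* (chr11:79992856-79993155, plus strand): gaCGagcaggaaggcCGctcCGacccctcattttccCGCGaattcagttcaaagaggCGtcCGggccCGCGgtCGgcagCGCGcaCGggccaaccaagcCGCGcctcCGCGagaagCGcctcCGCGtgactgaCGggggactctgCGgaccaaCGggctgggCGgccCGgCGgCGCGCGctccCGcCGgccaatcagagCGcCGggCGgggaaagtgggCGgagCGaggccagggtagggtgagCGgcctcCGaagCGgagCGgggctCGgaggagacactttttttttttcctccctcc
*Cbx7* (chr15:79932597-79932896, minus strand): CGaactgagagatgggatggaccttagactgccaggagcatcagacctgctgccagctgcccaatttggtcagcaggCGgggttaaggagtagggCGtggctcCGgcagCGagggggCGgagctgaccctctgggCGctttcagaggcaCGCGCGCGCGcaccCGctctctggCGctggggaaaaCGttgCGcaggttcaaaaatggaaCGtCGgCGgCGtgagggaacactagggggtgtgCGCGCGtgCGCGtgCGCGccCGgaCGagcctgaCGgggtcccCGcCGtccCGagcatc
CpG dinucleotides numbered 23 in *Ezh1*, 31 in *Ezh2*, 17 in *Eed*, 41 in *Suz12* and 33 in *Cbx7*. The median over 32851 RefSeq promoters was 7, with quartiles of 3 and 20, so *Suz12* was at percentile 97.0 and *Eed*, the lowest of these 5, at 70.3. The table matched 8 of the 10 genes with 10 entries, and *Kdm6b* and *Cbx2* had none. The entries of *Bmi1*, *Jarid2* and the main *Mtf2* start held 23 to 30 CpG, and a further *Mtf2* start 12491 bp inside the gene, under no peak in either list, held 2.

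A word search on both strands of these entries used 6 sets of words, and no word of one set overlapped a word of another in any of them. E2F words (TTTCCCGC, TTTCGCGC, TTTGCCGC or TTTGGCGC) occurred in 2.26% of all promoters and in 2 of the 10 entries. In *Suz12* the word TTTCCCGC began at base 32 of the printed sequence, and in *Ezh2* the word TTTGGCGC began at base 254. The GC box GGGCGG occurred in 35.7% of promoters and 6 of 10 entries, and CCAAT in 37.4% and 7 of 10. Both entries of *Jarid2* were in each of these counts, and CCAAT at *Mtf2* was found only in the entry of its internal start. The E-box CACGTG (7.15% of promoters) was found in *Bmi1*. TGACGTCA (CRE, 1.79%) and CCGGAAGT (GABPA, 3.89%) were in none of the entries.

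Most of these genes carried H3K4me3 at the annotated 5′ end in both neuron types, and the H3K27me3 that their products handle was listed at the promoter of a single one, *Cbx2*. Promoter islands of H3K27me3 were also a minority among all protein-coding genes, at 21.6% in A2a and 15.3% in D1. With a promoter window from 2 kb upstream to 1 kb downstream of the annotated 5′ end, 8 of 10 genes had an H3K4me3 peak in A2a, against 58.2% of protein-coding genes, and 7 of 10 had one in D1, against 55.8%. The 7 genes with a peak in both lists were *Ezh1*, *Ezh2*, *Eed*, *Suz12*, *Mtf2*, *Cbx2* and *Bmi1*. *Jarid2* and *Cbx7* had a peak at another start site. *Kdm6b* had its stronger peaks on either side of the window, and it counted in A2a through a weak peak that reached 19 bp into it. When the window was set on every annotated transcript start, 10 of 10 genes had a peak in A2a (62.0% of protein-coding genes) and 9 of 10 in D1 (59.4%).

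The strongest promoter peaks of these genes ranked at a median percentile of 82.5 in A2a (8 genes) and 70.9 in D1 (7 genes). All protein-coding genes with a promoter peak had medians of 72.1 and 71.0, so the D1 median was close to that of promoters in general. Among the 7 genes with a peak in both lists, 6 ranked higher in A2a than in D1, with a median difference of 14.7 percentile points, and *Cbx2* alone ranked lower. Across 12204 protein-coding genes with a peak in both lists, 65.3% ranked higher in A2a and the median difference was 3.83 points. By fold enrichment, 6 of the 7 genes were also higher in A2a, beside 58.6% of protein-coding genes, and *Cbx2* was again the exception. The median fold enrichment of the A2a peaks was 7.83, beside 7.65 for all promoters, and that of the D1 peaks was 7.32, beside 7.52.

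**Figure D1:**
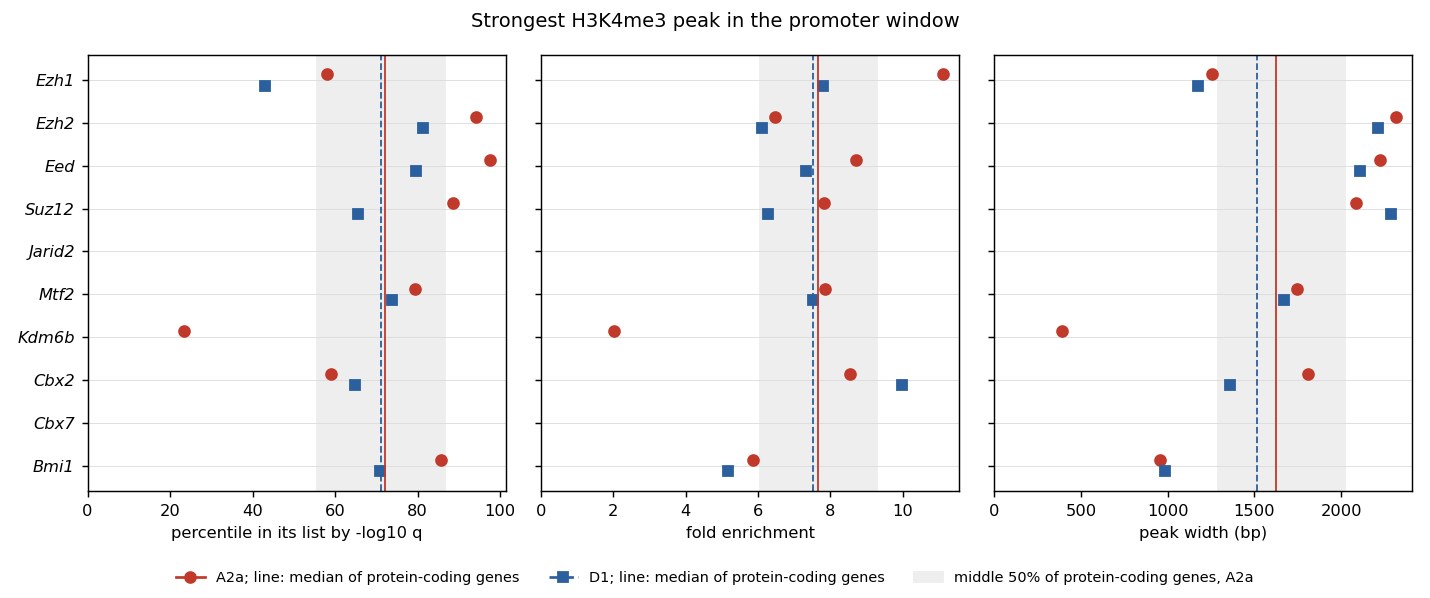
Percentile by −log10 q (left), fold enrichment (middle) and width in bp (right) of the strongest H3K4me3 peak in the promoter window of each gene. Circles are the pooled A2a list and squares the pooled D1 list, vertical lines are medians over protein-coding genes with a promoter peak and the grey band is their middle 50% in A2a; each point is 1 value with no replicate error, and a gene without a point had no peak in the window. *Ezh2*, *Eed* and *Suz12* have the widest peaks (2084 to 2315 bp), and *Kdm6b* has only a 393 bp peak in A2a.

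The core subunits of PRC2 had wide H3K4me3 promoter peaks with *Ezh1* as the exception. *Ezh2* (chr6:47530139-47595341, minus strand), the catalytic subunit of dividing cells, had 1 peak from 598 bp upstream to 1716 bp downstream of its 5′ end in A2a. This peak was 2315 bp wide with a fold enrichment of 6.47, a −log10 q of 201 and percentile 94.1. In D1 it was 2215 bp wide with a fold enrichment of 6.12, a −log10 q of 105 and percentile 81.2. The peaks had almost the same borders in both lists, both covered the first exon, and the nearest H3K27me3 island was 169 kb from the window in A2a and 170 kb in D1. *Eed* (chr7:89954654-89980983, minus strand), which binds trimethylated H3K27 and stimulates the enzyme, had the highest rank of the 10 genes in A2a. Its peak was 2224 bp wide in A2a (fold enrichment 8.71, −log10 q 233, percentile 97.6) and 2108 bp wide in D1 (fold enrichment 7.32, −log10 q 102, percentile 79.5). The peak also covered the start of *E230029C05Rik*, a processed transcript on the opposite strand that begins 260 bp inside *Eed*, and the 2 starts cannot be told apart in these lists.

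*Suz12* (chr11:79993106-80034123, plus strand), the scaffold of the complex, had the largest gap in rank between the lists. Its peak was 2084 bp wide in A2a (fold enrichment 7.83, −log10 q 174, percentile 88.6) and 2289 bp wide in D1 (fold enrichment 6.27, −log10 q 77.2, percentile 65.5), a difference of 23.1 points. *Ezh1* (chr11:101191115-101226463, minus strand), the catalytic subunit known for its expression in non-dividing cells, ranked lowest of the 7 genes with a peak in both lists. Its peak was 1256 bp wide in A2a, with a −log10 q of 88.6 and percentile 58.1, and 1177 bp wide in D1, with a −log10 q of 34.8 and percentile 43.1. The A2a peak of *Ezh1* nevertheless had the highest fold enrichment of the 10 genes in that list, 11.1, beside 7.80 in D1, so that by fold enrichment it stood at percentile 93.4 of the A2a list and 69.1 of the D1 list. A second, weaker peak lay near the 3′ end of *Ezh1*, 31458 to 32323 bp from the 5′ end in A2a (fold enrichment 5.67, percentile 24.2), where a short annotated transcript begins. In D1 it was 262 bp wide (fold enrichment 4.44, percentile 16.4).

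The accessory subunits differed in where the mark sat. *Mtf2* (chr5:108065674-108109004, plus strand), which guides PRC2 to CpG-rich DNA, had a single peak at its 5′ end. It was 1743 bp wide in A2a (fold enrichment 7.84, −log10 q 145, percentile 79.4) and 1672 bp wide in D1 (fold enrichment 7.53, −log10 q 91.0, percentile 73.7). *Jarid2* (chr13:44729474-44921643, plus strand), a DNA-binding partner of PRC2, lacked a peak in the window around its GENCODE 5′ end, both in A2a and in D1. Its main peak began 1503 bp inside the gene in A2a and 1307 bp inside in D1, 503 and 307 bp past the window, and was the widest at any of the 10 genes. In A2a it was 3425 bp wide with a fold enrichment of 3.69 and percentile 75.2, and in D1 it was 3455 bp wide with a fold enrichment of 3.80 and percentile 73.1. By width alone it stood at percentile 99.2 of the A2a list and 99.5 of the D1 list, whereas by fold enrichment it stood at 9.76 and 14.2. RefSeq places the first start of *Jarid2* 1300 bp downstream of the GENCODE 5′ end, and the next at 1797 and 4199 bp are inside this peak in both lists.

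A second *Jarid2* peak lay over an annotated start deeper in the gene, 110707 bp from the 5′ end and 1311 bp wide in A2a (fold enrichment 6.70, percentile 41.0) and 1518 bp wide in D1 (fold enrichment 5.51, percentile 34.1). D1 alone had one more, 319 bp wide, in an intron 140100 to 140418 bp from the 5′ end (chr13:44869574-44869892, fold enrichment 6.63, percentile 30.3). The only H3K27me3 island at *Jarid2* was at this same place and in the same cell type. It was 400 bp long (chr13:44869601-44870000) with 59 reads (44.9 to 76.1), and its 148 reads per kb ranked near the top of the D1 list (percentile 100 after rounding), although its read count stood at percentile 7.51. A2a had neither peak nor island there.

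*Kdm6b* (chr11:69398508-69413675, minus strand), which encodes an H3K27 demethylase, had H3K4me3 on both sides of its GENCODE 5′ end and none over it. Downstream, A2a had 1 peak of 3296 bp from 1641 to 4936 bp inside the gene (fold enrichment 4.53, −log10 q 109, percentile 65.0). D1 had 2 peaks over the same stretch, with outer borders within 14 bp of it, of 1824 bp (fold enrichment 3.74, percentile 51.2) and 1207 bp (fold enrichment 4.17, percentile 54.3). Upstream, a peak of 2021 bp lay 3176 to 5196 bp before the 5′ end in A2a (fold enrichment 4.11, percentile 47.2), and one of 1370 bp lay 3937 to 5306 bp before it in D1 (fold enrichment 3.4, percentile 34.8). RefSeq has a *Kdm6b* start 4465 bp upstream, inside these peaks in both lists, and 3 starts 2445 to 4046 bp inside the gene that fell in the downstream peaks. Its other *Kdm6b* starts, from 6692 bp upstream to 1241 bp inside the gene, were under no peak in either list. They include a start 54 bp inside the GENCODE 5′ end. The difference in the promoter count between A2a and D1 came from a weak peak between the upstream and downstream peaks. In A2a it was 393 bp wide with a fold enrichment of 2.03 and reached 19 bp into the window, and in D1 it was 236 bp wide with a fold enrichment of 1.63 and ended 108 bp outside it. The nearest H3K27me3 island was 174 kb from the window in A2a and 176 kb in D1.

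Among the PRC1 genes, *Bmi1* (chr2:18677018-18686629, plus strand), a PCGF subunit that partners the RING ubiquitin ligases, had 2 promoter peaks divided by a gap of 312 bp in A2a and 352 bp in D1. The first was 791 bp wide in A2a (fold enrichment 4.44, percentile 69.9) and 760 bp wide in D1 (fold enrichment 4.33, percentile 70.0). The second ranked higher in A2a, at 958 bp with a fold enrichment of 5.87 and percentile 85.6, than in D1, at 984 bp with a fold enrichment of 5.16 and percentile 70.9. The neighbouring *Commd3* ends 787 bp before *Bmi1* on the same strand and had a peak of its own over its start (percentile 69.1 in A2a, 91.5 in D1). *Bmi1* also met the longest island at any of the 10 genes, which overlapped the last 229 bp of its final exon and ran downstream. It was 17.0 kb long in A2a with 2403 reads (2308 to 2501, 141 per kb, percentile 98.7) and 15.8 kb long in D1 with 960 reads (900 to 1023, 60.8 per kb, percentile 98.5). Both islands began at the same base, chr2:18686401, and both lay 8.38 kb from the promoter window.

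*Cbx7* (chr15:79915807-79971119, minus strand), a CBX subunit that binds trimethylated H3K27, showed no H3K4me3 over the GENCODE 5′ end of the gene. RefSeq also has starts 23 and 24 bp upstream of this end, and a start 45666 bp inside the gene, all under no peak in either list. The *Cbx7* peak lay 37958 bp inside in A2a and 38073 bp inside in D1, at the start used by the RefSeq promoter printed above and by further annotated transcripts. It was 1163 bp wide in A2a (fold enrichment 8.06, −log10 q 66.7, percentile 51.9) and 993 bp wide in D1 (fold enrichment 8.53, −log10 q 50.2, percentile 50.8), and the D1 peak lay wholly inside the A2a one. A2a alone had a further intronic peak of 490 bp (fold enrichment 5.86, percentile 25.4), and A2a alone had an intronic H3K27me3 island of 800 bp with 75 reads (59.0 to 94, percentile 0.455), among the smallest of its list. By reads per kb (93.8), this island stood at percentile 94.7. The nearest D1 island was 452 kb from the window.

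*Cbx2* (chr11:119022962-119031270, plus strand), another reader of the mark, was the only one of the 10 genes with an H3K27me3 island in the promoter window, and it had one in both lists. Islands were found in the promoter window of 21.6% of protein-coding genes in A2a and 15.3% in D1. Both marks together, as at *Cbx2*, were found at 9.53% of protein-coding genes in A2a and 5.56% in D1. The H3K4me3 peak of *Cbx2* spanned the start, 1808 bp wide in A2a (fold enrichment 8.53, −log10 q 91.8, percentile 59.1) and 1360 bp wide in D1 (fold enrichment 9.97, −log10 q 75.9, percentile 64.9). The island lay next to it on the upstream side. In A2a it ran from 3161 to 562 bp before the start, 2.60 kb long with 178 reads (153 to 206) and percentile 39.0, and its end overlapped the peak by 82 bp. In D1 it ran from 3561 to 762 bp before the start, 2.80 kb long with 92 reads (74.2 to 113) and percentile 41.2, and ended 351 bp short of the peak. Ranked by reads per kb, the A2a island stood at percentile 67.9 and the D1 island at 24.3, which turned their order. The 2 marks thus adjoined at *Cbx2*, and neither island entered the gene.

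Per kb, the A2a island of *Cbx2* had 2.08 times the reads of the D1 island (1.61 to 2.71). The same ratio had a median of 1.88 over the 3132 protein-coding genes with a promoter island in both lists, with quartiles of 1.66 and 2.1. By reads per kb, the A2a excess at *Cbx2* was therefore of the size seen at promoter islands in general. By total reads the ratio at *Cbx2* was lower, at 1.93 (1.5 to 2.52), beside a median of 2.61 and quartiles of 2.11 and 3.67. By length the ratio at *Cbx2* was 0.929, beside a median of 1.4 and a lower quartile of 1.07. Promoter islands of protein-coding genes had a median of 465 reads and 6200 bp in A2a and 218 reads and 4800 bp in D1, and the *Cbx2* islands were smaller than these medians in both lists. The protein-coding genes closest to *Cbx2* in all 4 percentiles, of 1142 others with a promoter peak and a promoter island in every list, were *Haus6* at a distance of 11.6 percentile points, *Myo6* at 12.6 and *1700056E22Rik* at 14.8.

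Counting the gene body as well, 3 of 10 genes met an island in A2a (*Cbx2*, *Cbx7* and *Bmi1*), against 29.2% of protein-coding genes. In D1, 3 of 10 did (*Cbx2*, *Jarid2* and *Bmi1*), against 22.1%. The 4 PRC2 core genes among the 10 (*Ezh1*, *Ezh2*, *Eed* and *Suz12*) met none in either list. *Ezh1* came closest, with an island of 3 kb and 191 reads in A2a that ended 738 bp from the window and one of 1.40 kb and 69 reads in D1 that ended 2.34 kb from it. The islands of *Ezh1* shared their far border, 5737 bp upstream of its 5′ end. The median distance from the window to the nearest island was 14.4 kb for the 10 genes in A2a and 107 kb in D1, beside 28.8 kb and 54.2 kb for protein-coding genes. For 8 of the 10 genes the distances in A2a and D1 were within 1600 bp of each other. *Mtf2* (13.1 kb in A2a and 328 kb in D1) and *Cbx7* (11.5 and 452 kb) were the exceptions, each with a short A2a island (1.80 and 0.800 kb) that had no counterpart in the D1 list.

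**Figure D2:**
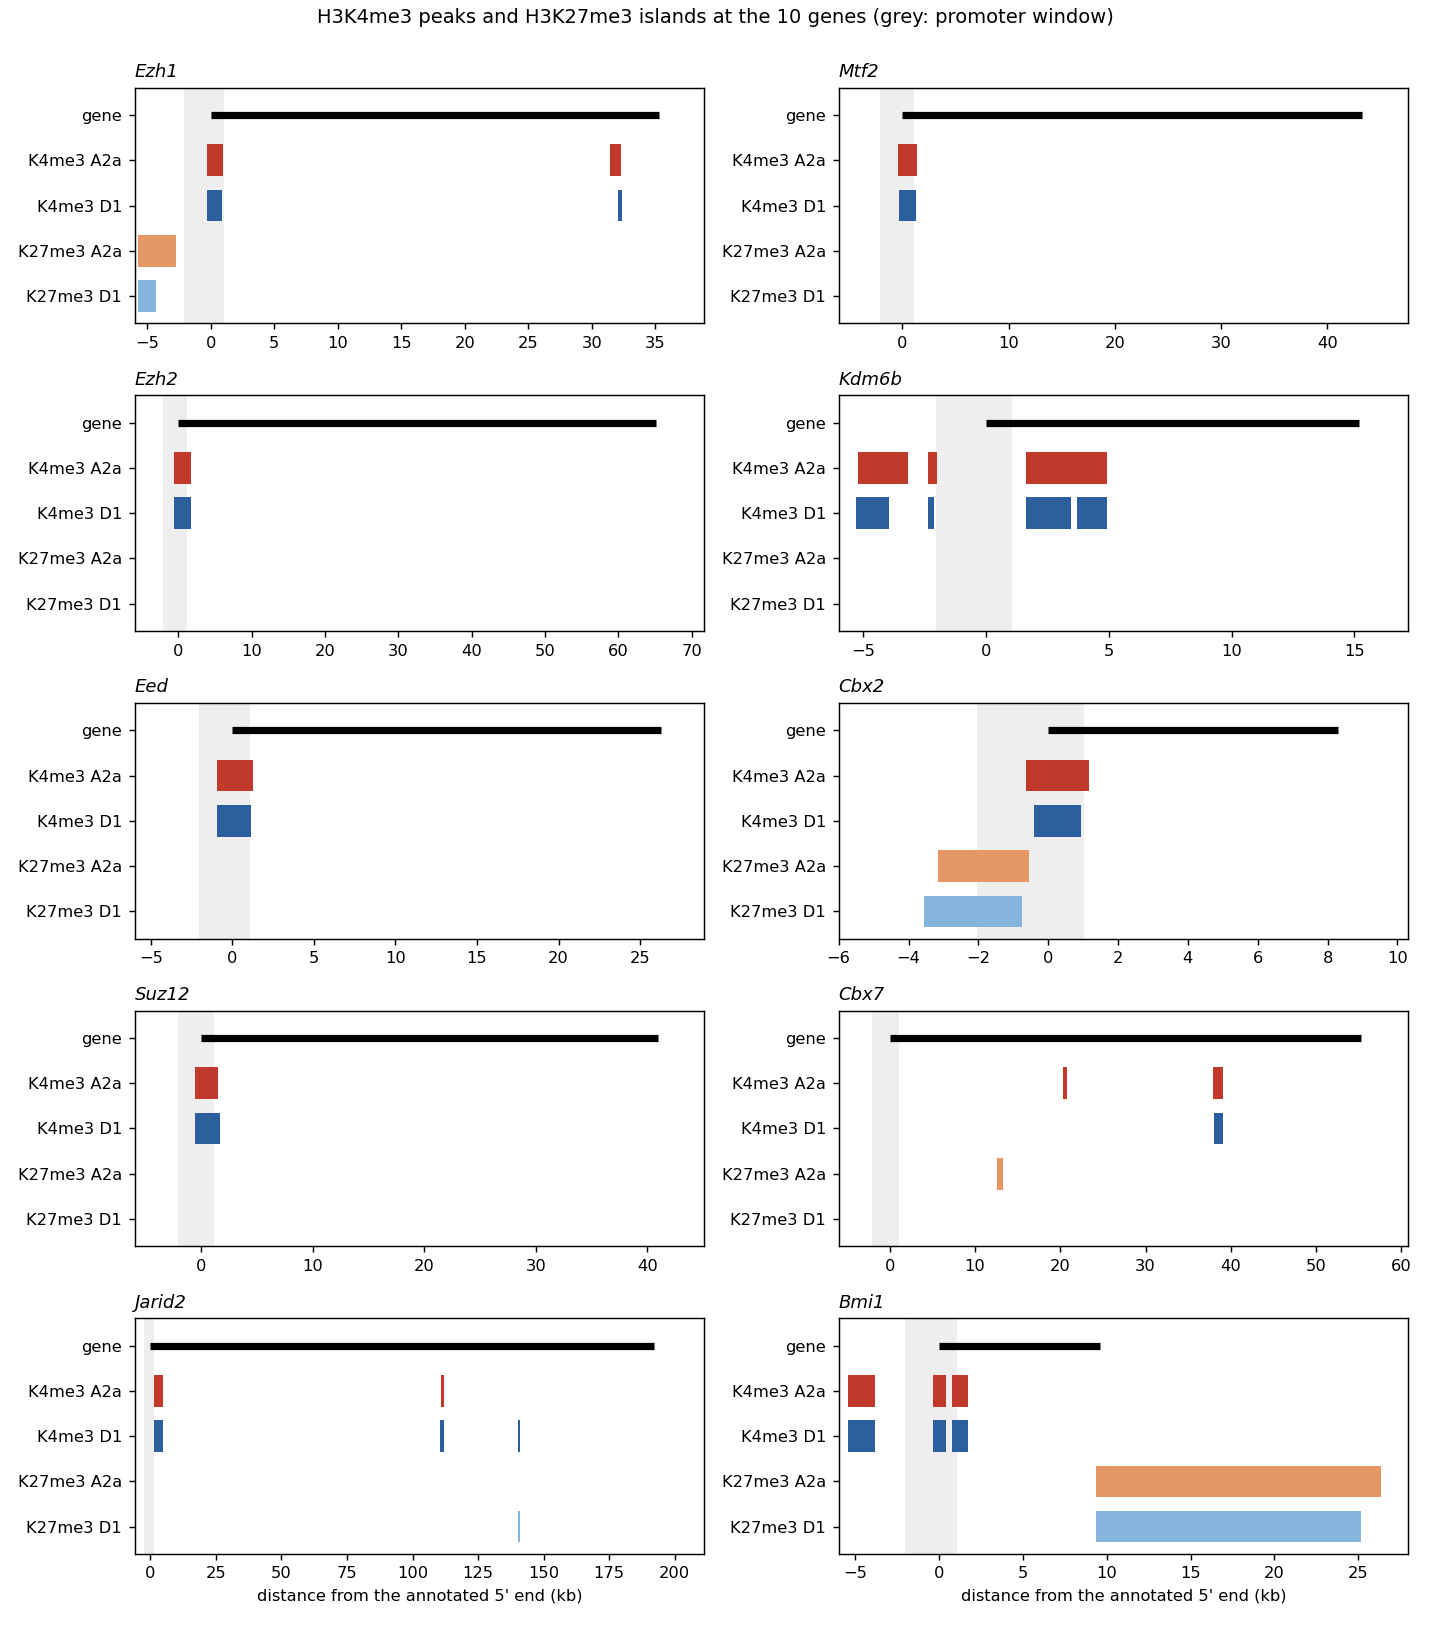
H3K4me3 peaks (dark bars) and H3K27me3 islands (light bars) of the pooled A2a (red, orange) and D1 (blue) lists at each gene, by distance from its annotated 5′ end in kb on a scale that differs between panels; the black line is the gene, the grey band the promoter window, and very narrow bars are widened to stay visible. The islands upstream of *Ezh1* and *Cbx2* and downstream of *Bmi1* recur in both lists, and the internal peaks of *Jarid2*, *Kdm6b* and *Cbx7* lie outside the window.

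**Figure D3:**
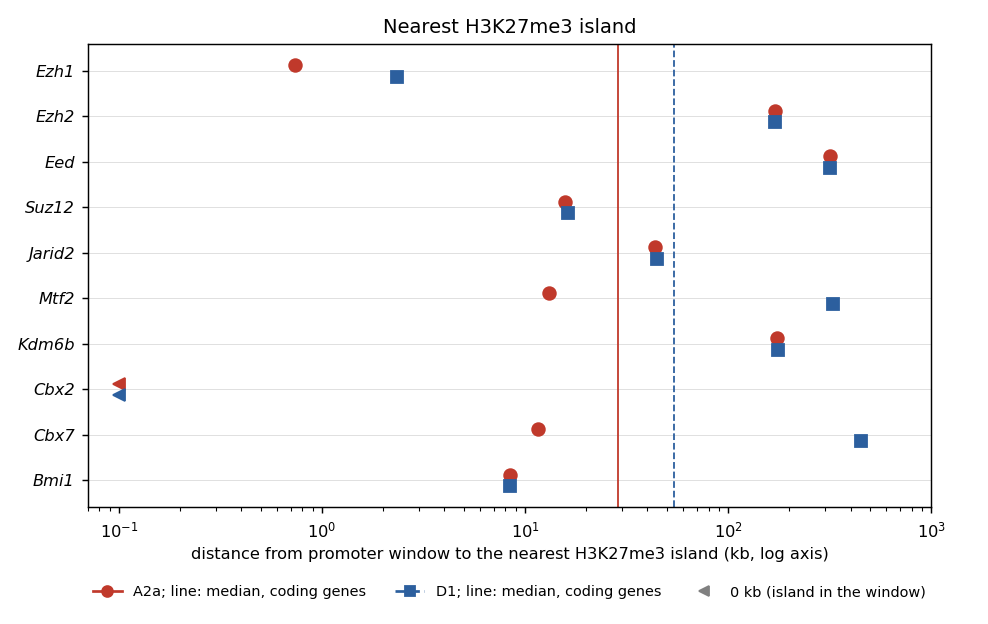
Distance in kb, on a log axis, from the promoter window of each gene to the nearest H3K27me3 island in the A2a (circles) and D1 (squares) lists, with triangles for an island inside the window (0 kb, drawn at the axis's low end) and vertical lines for the medians of protein-coding genes (28.8 and 54.2 kb). *Cbx2* is at 0 in both lists, *Ezh2*, *Eed* and *Kdm6b* lie at 169 to 317 kb in both, and *Mtf2* and *Cbx7* are near an island in A2a only.

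*Cbx2* lies in a stretch of chromosome 11 beside a further CBX gene of PRC1, *Cbx8*, and both had H3K4me3 over the start and an H3K27me3 island on the upstream side in both lists, although the A2a island of *Cbx8* also ran 768 bp past its start. At *Cbx8* (chr11:119036305-119040969, minus strand) the island was 19.4 kb long with 2249 reads (2157 to 2344, percentile 98.6) in A2a and 12 kb long with 735 reads (683 to 790, percentile 97.8) in D1. The *Cbx8* and *Cbx2* islands held 116 and 68.5 reads per kb in A2a and 61.2 and 32.9 in D1. Together they were 22.0 kb long in A2a and 14.8 kb long in D1. The A2a *Cbx8* island also reached past an H3K4me3 peak 32.5 to 34.2 kb from the *Cbx2* start (fold enrichment 5.11) that lay outside the shorter D1 island (fold enrichment 4.59 in D1).

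**Figure D4:**
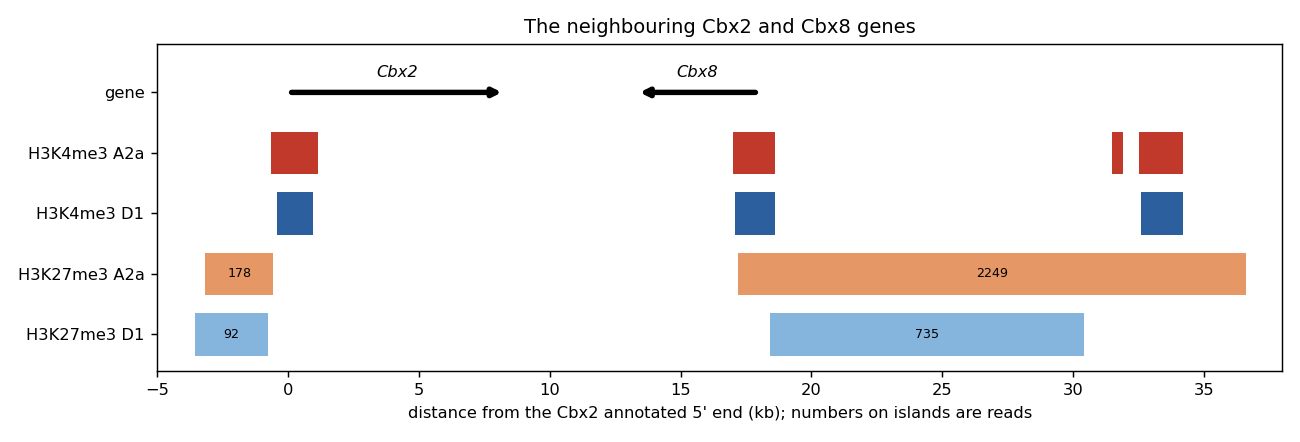
The stretch holding *Cbx2* and *Cbx8* (arrows, in the direction of transcription), by distance from the *Cbx2* 5′ end in kb, with H3K4me3 peaks (dark bars) and H3K27me3 islands (light bars) of the pooled A2a and D1 lists; the number on each island is its read count. Each gene has a peak over its start and an island beside or partly over it, and the *Cbx8* island is the longer (19.4 kb in A2a, 12 kb in D1).

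A wider list of 44 Polycomb and H3K27 demethylase genes, which includes the 10, had H3K4me3 promoter peaks at 40 genes in each list (90.9%). Among protein-coding genes, 58.2% had one in A2a and 55.8% in D1. Promoter islands were listed at 4 of the 44 in A2a (9.09%) and 3 in D1 (6.82%), beside 21.6% and 15.3% of protein-coding genes. Each of these genes also had an H3K4me3 promoter peak, and both marks were found together at 9.53% and 5.56% of protein-coding genes. The 3 with islands in both lists were *Cbx2*, *Cbx8* and *Pcgf1*, the last being 1 of the 8 RING and PCGF genes, and none of the 6 PRC2 core genes had one. *Pcgf1*, a PCGF subunit of variant PRC1, had an island of 17.8 kb and 2206 reads (2115 to 2300) in A2a and one of 16.0 kb and 991 reads (930 to 1055) in D1. These islands ended 1269 and 1669 bp before its start and covered the start of the neighbouring homeobox gene *Tlx2*. *Epop*, an accessory PRC2 subunit, had an island in A2a only, which covered the whole gene with 304 reads over 6.00 kb (271 to 340, percentile 68.9), beside H3K4me3 peaks of low rank in both lists (38.5 and 31.9).

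In the same wider list, *Bcorl1*, a PRC1 corepressor gene, joined *Jarid2* and *Cbx7* in having H3K4me3 peaks at another annotated start but none at the 5′ end. *Uty*, the Y-linked relative of the H3K27 demethylase gene *Kdm6a*, had a promoter peak in D1 (1247 bp, fold enrichment 9.57, percentile 63.8) and none in A2a at any annotated start. *Kdm5d*, a Y-linked H3K4 demethylase gene outside this list, had the same pattern (percentile 63.2 in D1, none in A2a), and the part of the sex of the pooled mice in the differences between A2a and D1 was not tested. The widest promoter peaks in A2a were those of *Kdm6a* (3153 bp, and 3162 bp in D1), *Rybp* of variant PRC1 (2855 bp, and 2053 bp in D1) and *Lcor* of PRC2 (2664 bp, and 1512 bp in D1). *Kdm6a*, an X-linked gene, stood at percentile 95 by rank in A2a and 59.0 in D1. This was the largest difference among the 39 genes of the list that had a peak in both. The part of sex in this difference was not tested either. The median difference between A2a and D1 ranks over these 39 genes was 4.86 points, close to the 3.83 of all protein-coding genes.

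**Figure D5:**
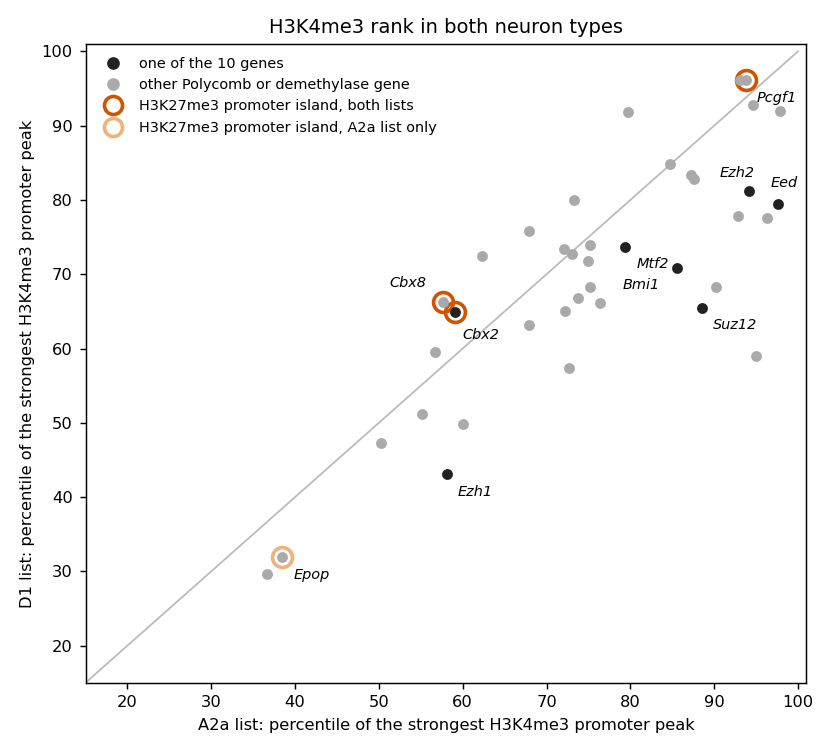
Percentile by −log10 q of the strongest H3K4me3 promoter peak in the A2a list (x axis) against the D1 list (y axis) for the 39 genes of the wider list with a promoter peak in both; black points are those of the 10 genes that qualify, dark rings mark an H3K27me3 promoter island in both lists, a pale ring one in A2a only, and the line is equality. Of the black points, *Cbx2* alone lies above the line, the 3 genes with dark rings (*Cbx2*, *Cbx8* and *Pcgf1*) all lie above it, and *Epop* (pale ring) lies below it.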

How the data were processed

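CUT&RUN libraries of H3K4me3 and H3K27me3 were made by the authors from INTACT-sorted A2a and D1 nuclei. Reads were mapped to mm10 with Bowtie2 (version 2.1.0), filtered at a mapping quality of 20, deduplicated and selected for inserts of 150 to 500 bp. The authors called H3K4me3 peaks on pooled replicates with MACS2 at q 0.01, with no control named, and deposited a fold enrichment, which is a ratio to local background, and a −log10 q-value. They called H3K27me3 islands with SICER (window 200 bp, gap 600 bp, FDR 0.01) against a control that is not given in the sources used here, and the deposited value is the count of reads in the island, without normalization. Library totals are not part of the lists.

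Here, peaks and islands were matched to GENCODE vM21 genes (55450, of which 21951 protein-coding) by overlap of at least 1 bp with the promoter (2 kb upstream to 1 kb downstream of the annotated 5′ end) or the gene body. Shares over protein-coding genes give the background. Named from the wider list were genes with a promoter island, genes without an H3K4me3 promoter peak in 1 or both lists, and the 3 widest A2a promoter peaks, and 3 genes nearest to *Cbx2* by Euclidean distance over the 4 percentiles. The members and lists were chosen with earlier results of these data known. One gene of the wider list is not reported here and was left out of its counts. The other samples were not analysed here. Overlap, percentile and interval steps were tested on simulated data. Python (version 3.11.15), numpy (2.4.6), scipy (1.17.1) and matplotlib (3.10.9) were used.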

Additional observations from a re-analysis of the deposited data

How the results depend on the processing

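The lists hold no replicates, so none could be left out. No paired analysis was possible because each list pools its replicates. The 8 counts of genes were within 1.5 times their values in 53 of 58 recomputations. With 10 genes in all, the H3K4me3 promoter counts of 8 in A2a and 7 in D1 could not rise past this limit. The median percentiles of the H3K4me3 promoter peaks moved past a 95% binomial interval in 13 of 18 recomputations. This interval was set by the number of peaks in the whole list (22551 in A2a and 20080 in D1), so it is narrow. It does not measure the spread of a median over 8 or 7 genes. With a window of 5 kb on both sides, the genes with a promoter island were 2 in A2a and 2 in D1, and those with both marks 2 in A2a and 2 in D1, since the island upstream of *Ezh1* then counted. When at least 500 bp of an island had to lie inside, a choice made after seeing the data, 1 gene in D1 (*Cbx2*) and 2 in A2a (*Cbx2* and *Cbx7*) met one. The 19 bp contact at *Kdm6b* in A2a was lost with an overlap of 200 bp or a window of 1 kb on both sides, which left 7 genes. The RefSeq starts and the search over the whole gene were also chosen after seeing the data, and with RefSeq starts 10 of 10 genes had an H3K4me3 peak in each list. No share over all genes was computed for the RefSeq starts, the 5 kb window or the 500 bp rule. A gene with several RefSeq starts has several windows in which a peak can fall.

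The median percentile of the strongest H3K4me3 promoter peak was 82.5 in A2a and 70.9 in D1. In A2a it was 85.6 with a 1 kb window or a 200 bp overlap, 79.4 with a 5 kb window, 77.3 with any annotated start, any RefSeq start or the whole gene, 65.1 when ranked by fold enrichment and 77.4 by width. In D1 it was 73.1 with a 5 kb window, 62.9 by fold enrichment, 76.2 by width and 68.2 with RefSeq starts or the whole gene. By reads per kb, the *Cbx2* island moved from percentile 39.0 to 67.9 in A2a and from 41.2 to 24.3 in D1. Over all 55450 annotated genes, promoter peaks were found at 30.1% in A2a and 28.6% in D1 and promoter islands at 19.3% and 13.1%. The lists show only regions past the authors' thresholds, the depth of each library is unknown, and a missing region is not evidence that the mark is absent.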

Other observations

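The genes that write and erase H3K4 methylation, a list of 18 kept for counts, had no H3K27me3 island at the promoter or in the gene body in either list. Among protein-coding genes 29.2% met one in A2a and 22.1% in D1, and the 3 of 10 Polycomb genes in each list were near those shares. H3K4me3 promoter peaks were listed at 15 of these 18 genes in A2a and 16 in D1, against 58.2% and 55.8% of protein-coding genes. With any annotated start, the counts were 17 and 18, against 62.0% and 59.4%. The gene added in D1 was in both counts the Y-linked *Kdm5d*, which, like *Uty*, had no A2a peak at any annotated start. Among the other genes of the wider Polycomb list, *Aebp2* and *Asxl3*, named after their values were seen, met islands in the gene body alone. *Aebp2*, an accessory PRC2 subunit, met 1 of 7.40 kb with 406 reads in A2a and none in D1, and *Asxl3*, of the complex that removes ubiquitin from histone H2A, met 10 islands in A2a (65.4 kb, 3685 reads) and 13 in D1 (32.8 kb, 1087 reads).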
